A study of Mus musculus with 4 samples.

Results

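The cells described here came from the adventitia, the outer connective tissue coat of the aorta, of aged mice, and were chosen by a set of UMI (unique molecular identifier) limits meant to pick monocytes. A cell was a member if it carried at least 2 UMIs of Lyz2 and Csf1r together and at least 2 of Plac8, Ly6c2, Ace and Treml4 together. It could hold at most 2 UMIs of C1qa, C1qb and C1qc, at most 1 of Alox15, Serpinb2 and F10, fewer than 20 of S100a8 and S100a9, and none of Cd3d, Cd3e, Cd79a, Ms4a1 or Nkg7. The rule took 374 of the 8497 adventitial cells that passed the quality filter (4.4%, exact 95% binomial interval 3.98 to 4.86), out of 14831 cells in the whole series. The measured values of these 19 genes chose the members, so they are given as a description.

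The data went against the monocyte label for most of these cells. Only 71 of the 374 (19.0%) lay in the cluster whose expressed genes were those of monocytes, while 256 (68.4%) lay in 3 clusters of fibroblast-like cells and 47 (12.6%) were spread over 11 other clusters. The 374 are therefore called the rule-selected cells below, the 71 the monocyte-like members and the 256 the fibroblast-cluster members.

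The 4 single-cell libraries were made with the droplet-based 10x 3′ v2 chemistry, 1 each from aged adventitia and young aortic arch intima and 2 from aged descending aorta intima. The protocol names C57BL/6 mice, and neither exact ages nor a treatment was stated. Intimal cells were loosened with trypsin from vessels stripped of adventitia and collected with Actinomycin D, which blocks transcription, but how the adventitia itself was dissociated was not described. Pools of 6 mice went into each of the descending libraries and 8 into the arch library, while the number behind the adventitial library was not given. With 1 adventitial library there is no replicate: cells are not replicates, no test was made, and every interval covers counting error only.

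Monocytes are made in the bone marrow and circulate as 2 main kinds in the mouse. Classical monocytes carry Ly6C and the chemokine receptor CCR2, and leave the blood for inflamed tissue, where they can become macrophages. Nonclassical monocytes depend on the transcription factor NR4A1, have lost most Ly6C, and patrol the inner surface of vessels. Resident adventitial macrophages, by contrast, carry scavenger receptors such as MRC1 and LYVE1, and adventitial fibroblasts make the collagens and proteoglycans of the outer coat.

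The 4 genes whose UMIs together had to reach 2 are shown through their upstream sequences. They help define the set and were carried to different extents by its groups, and no single one of them had to be present. Plac8 encodes a small cysteine-rich protein of myeloid and lymphoid cells, and Ly6c2 encodes the Ly6C surface antigen. Ace encodes angiotensin-converting enzyme, and Treml4 a receptor of the TREM family found on nonclassical monocytes and some dendritic cells. Ly6c1 is added because it is the close paralog of Ly6c2. The 250 bases before the first listed start were taken from RefSeq (GRCm38.p6) at chr5:100572206-100572455, chr15:75111972-75112221 and chr15:75048838-75049087 on the minus strand, and chr11:105967698-105967947 and chr17:48264045-48264294 on the plus strand. Capitals mark GAGGAA or its reverse complement TTCCTC, letters that occur in the binding motif of the myeloid factor PU.1.
Plac8: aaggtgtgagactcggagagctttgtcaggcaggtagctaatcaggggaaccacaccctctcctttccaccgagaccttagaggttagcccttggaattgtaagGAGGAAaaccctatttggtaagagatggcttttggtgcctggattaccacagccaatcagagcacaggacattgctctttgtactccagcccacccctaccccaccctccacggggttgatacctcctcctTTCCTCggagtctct
Ly6c2: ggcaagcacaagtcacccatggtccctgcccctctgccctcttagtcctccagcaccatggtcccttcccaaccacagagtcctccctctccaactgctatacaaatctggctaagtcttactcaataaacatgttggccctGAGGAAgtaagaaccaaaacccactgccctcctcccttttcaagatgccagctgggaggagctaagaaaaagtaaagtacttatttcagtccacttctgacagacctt
Ly6c1: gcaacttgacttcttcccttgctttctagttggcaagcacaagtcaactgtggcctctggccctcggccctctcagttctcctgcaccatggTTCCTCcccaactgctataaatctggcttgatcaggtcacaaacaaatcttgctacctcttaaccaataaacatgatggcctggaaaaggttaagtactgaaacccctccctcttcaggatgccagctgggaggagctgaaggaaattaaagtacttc
Ace: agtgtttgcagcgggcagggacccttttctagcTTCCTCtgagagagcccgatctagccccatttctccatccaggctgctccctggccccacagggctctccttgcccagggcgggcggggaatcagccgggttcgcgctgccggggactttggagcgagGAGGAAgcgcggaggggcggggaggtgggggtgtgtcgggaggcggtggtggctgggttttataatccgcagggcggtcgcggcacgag
Treml4: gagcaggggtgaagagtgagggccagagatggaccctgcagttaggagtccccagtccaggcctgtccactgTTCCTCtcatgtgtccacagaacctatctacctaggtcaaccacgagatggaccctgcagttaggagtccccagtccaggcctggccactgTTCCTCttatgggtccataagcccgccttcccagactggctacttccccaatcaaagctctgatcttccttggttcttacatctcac
Plac8, Ace and Treml4 held 2 matches each, and Ly6c2 and Ly6c1 held 1 each. Over all RefSeq mouse promoters of this length, 6252 of 27025 (23.1%) held at least 1. The Ly6c2 and Ly6c1 stretches were identical at 168 of 229 aligned positions (73.4%). Upstream identity does not bear on how reads were assigned. Ly6c2 and Ly6c1, Lyz1 and Lyz2, and the Sirpb1 genes are paralogs whose shared reads counting could split, which was not tested, so their levels are given with that limit.

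The adventitial library was the most cell-rich and the shallowest of the series. It held 9347 barcodes and 29370967 UMIs, with a median of 2524 per barcode, whereas the 3 intimal libraries held 2095 to 2187 barcodes and medians of 4808.5 to 6989. Of its barcodes, 850 were removed for under 200 genes or over 10% mitochondrial UMIs. It shared 27, 29 and 31 barcodes with the 3 intimal libraries, which shared 4 to 7 with each other. The median depth was 3185 UMIs in the monocyte-like members, 3605 in the fibroblast-cluster members, 4916 in the remaining 47 members and 2551 over the library. Doublet scoring marked 3 of the 71, 7 of the 256 and 8 of the 47, against 578 of all 8497 cells (6.8%).

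The monocyte-like cluster held 206 cells. Its leading genes included Chil3 (a chitinase-like protein), the signal-regulatory receptors Sirpb1b and Sirpb1c, Trem3, Ms4a4c and Ccr2. It met 13 of the 15 markers on a list of classical monocyte genes, and since that list named it, high levels of those genes there are a description. The 3 fibroblast-like clusters took 136, 103 and 17 rule-selected cells. The remaining members were led by 14 cells in an endothelial-like cluster and 2 in a smaller endothelial-like cluster. A further 8 lay in a mesothelial-like cluster and 9 in an unnamed cluster, whose leading genes included the dendritic cell markers Xcr1 and Cd209a.

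The groups differed in which of the required genes they carried. Of the 374 members, 180 (48.1%) had Ace or Treml4 but no Ly6c2, 56 had Ly6c2 without either, 16 (4.28%) had both kinds and 122 (32.6%) qualified through Plac8 alone. Among the 71 monocyte-like members these numbers were 14, 43, 3 and 11. In the fibroblast-like cluster with the most members they were 96, 2, 3 and 35 of 136 members. Of the 188 members with an Ace UMI, 167 were fibroblast-cluster members and 11 were monocyte-like. Plac8 was found in more fibroblast-cluster members than Ace, 225 against 167 of 256. Plac8 was at 0 UMIs in 31 of them and at 1 in 47, and Ace at 0 in 89 and at 1 in 93, so Plac8 reached the 2 required UMIs by itself more often. Treml4, in contrast, was found in 13 members, of which 10 were monocyte-like.

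**Figure D1:**
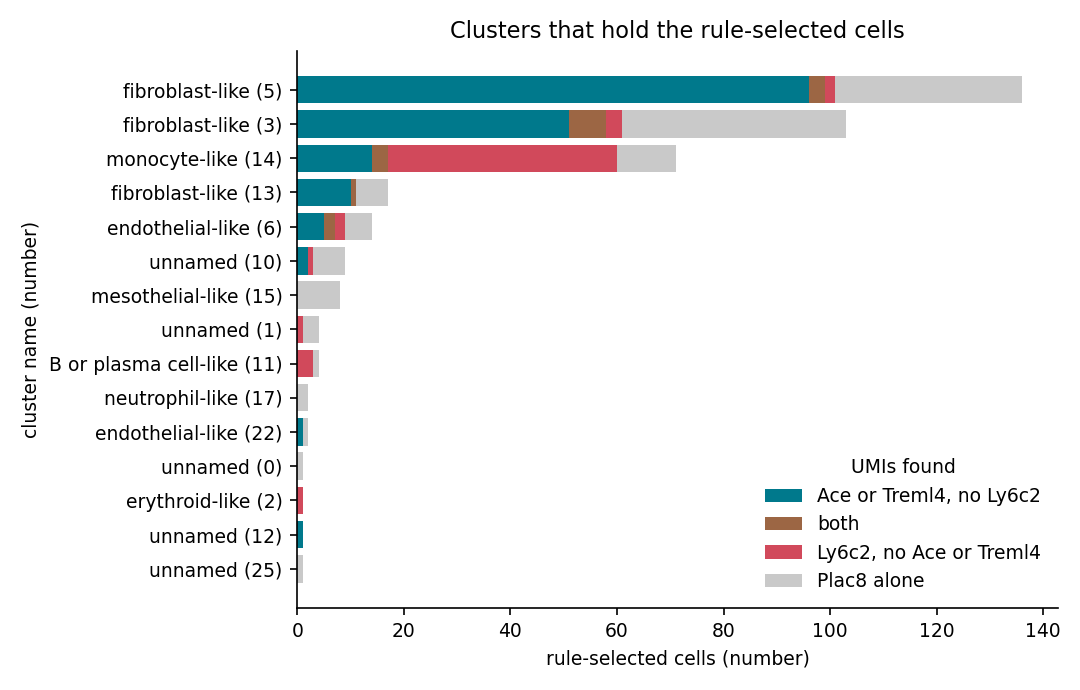
Number of rule-selected adventitial cells in each cluster, as stacked bars split by whether a cell carried Ace or Treml4, both these and Ly6c2, Ly6c2, or Plac8 alone. The fibroblast-like clusters hold 256 of the 374 cells, and the monocyte-like cluster holds 71, of which 43 carried Ly6c2.

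Lyz2, which encodes lysozyme and is the main gene of the myeloid condition, was found in every member but at very different levels. Per cell it ran from 3 to 154 UMIs with a median of 63 in the monocyte-like members, from 1 to 12 with a median of 3 in the fibroblast-cluster members, and from 1 to 106 with a median of 3 in the remaining members. As a level, Lyz2 had 18975.8 CPM (UMIs of the gene per 1000000 UMIs of the group; exact 95% Poisson interval 18414.8 to 19549.5) in the monocyte-like members and 771.5 (716.6 to 829.5) in the fibroblast-cluster members. Cells of any cluster with at least 2 UMIs of Cd79a and Ms4a1 together and no Cd3d or Cd3e are called B cells. B cells should not make lysozyme, but these had 1685.8 CPM of Lyz2, with at least 1 UMI in 85.1% of 1688 cells. Their median depth was 2434 UMIs. Clusters named B or plasma cell-like had less Lyz2, at 893.03 and 490.81 CPM. The part of other cell types in the B cell level was not tested. The requirement on Lyz2 and Csf1r was met by 99.0% of cells in the monocyte-like cluster, 58.1% in the fibroblast-like clusters, 60.4% in the endothelial-like clusters, 60.1% of B cells and 62.5% of the library. It thus admitted fibroblast-like, endothelial-like and B cells at about the same rate.

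Csf1r, the receptor for the growth factor that keeps monocytes and macrophages alive, had a UMI in 34 of 71 monocyte-like members and in 7 of 256 fibroblast-cluster members. The share of 2.73% in the fibroblast-cluster members was under the 4.92% of B cells and the 3.5% of the other cells in the fibroblast-like clusters. With every cell reduced to the same number of UMIs, the shares were 1.56%, 1.3% and 0.856% in the same order. Csf1r helped choose the members, so these shares cannot tell background from expression. The source of the Csf1r UMIs was not tested. Plac8 had a median of 11 UMIs per cell in the monocyte-like and 2 in the fibroblast-cluster members, at levels of 3728.6 and 836.9 CPM. It was not limited to monocytes in this library: an unnamed cluster with 692.49 CPM of Lyz2 carried 1502.07 CPM of Plac8. The leading genes of that cluster included the B cell genes Ms4a1 and Cd79b. The fibroblast-like cluster with the most members had 575.59 CPM of Plac8.

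Ly6c2 had 1218.0 CPM (1079.0 to 1369.9) in the monocyte-like members, 17.9 CPM (10.4 to 28.7) in the fibroblast-cluster members and 100.1 CPM in the remaining members. Its paralog Ly6c1 ran the other way, at 70.1, 981.3 and 744.7 CPM in the same groups. Ace had 294.1 CPM (260.6 to 330.7) in the fibroblast-cluster members and 70.1 CPM (40.1 to 113.8) in the monocyte-like members. It had a UMI in 65.2% of the fibroblast-cluster and 15.5% of the monocyte-like members. After each cell was thinned to 1000 UMIs these Ace shares were 27.0% and 11.3%. Without thinning, Ace was found in 36.8% of the other cells in the fibroblast-like clusters and in 2.78% of B cells. Ace helped choose the members, and the other cells of those clusters had failed the rule. The differences between members and these cells therefore partly follow from the selection. Treml4 had 48.2 CPM (24.1 to 86.2) in the monocyte-like and 2.11 CPM (0.255 to 7.61) in the fibroblast-cluster members.

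**Figure D2:**
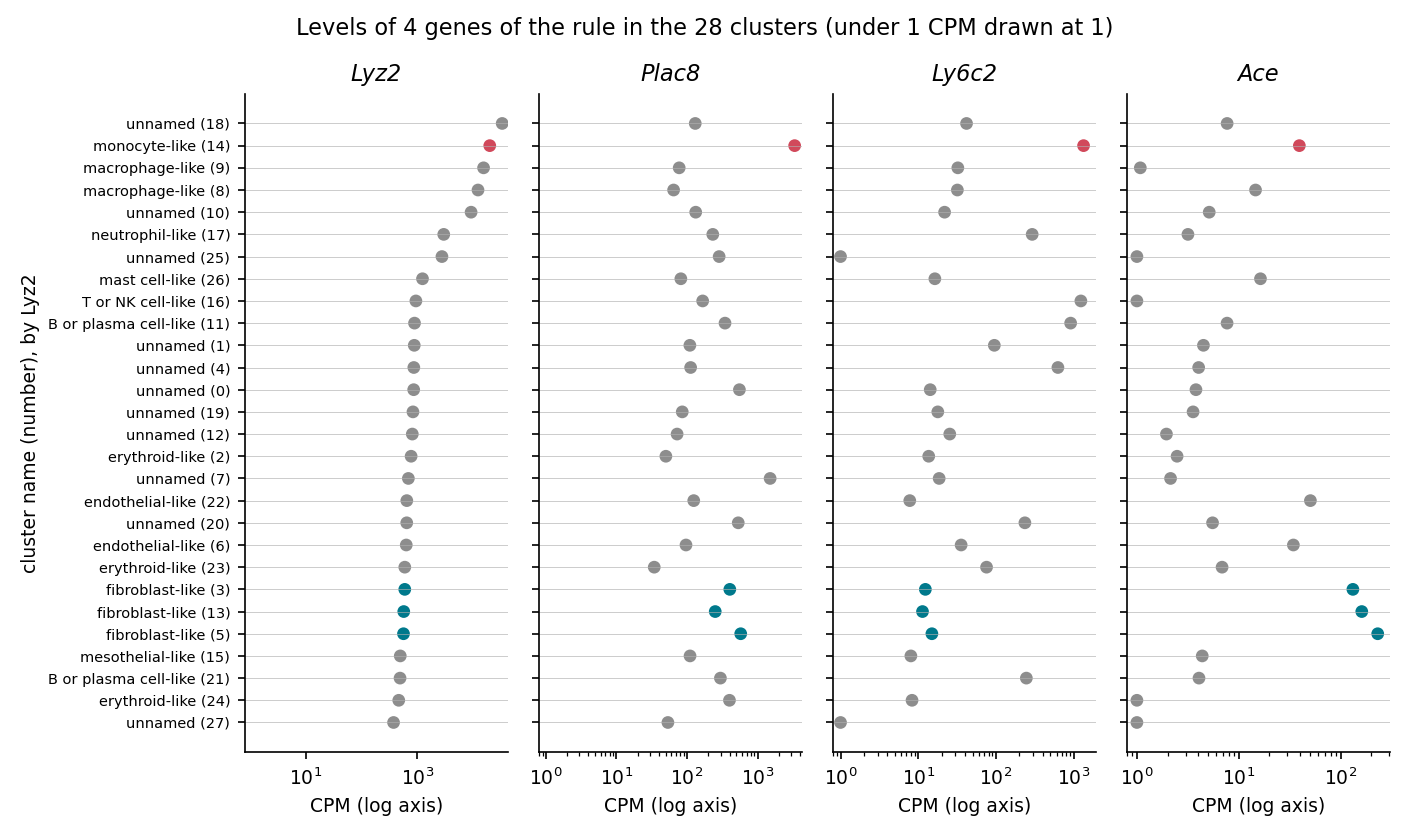
Levels of Lyz2, Plac8, Ly6c2 and Ace in CPM (log axis, values under 1 drawn at 1) in each of the 28 clusters of the adventitial library, one point per cluster. The monocyte-like cluster stands high for Lyz2, Plac8 and Ly6c2, whereas for Ace the 3 fibroblast-like clusters lie between 132.05 and 231.47 CPM and the monocyte-like cluster at 39.36.

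Myeloid genes outside the rule were sparse in the fibroblast-cluster members. Ccr2, the receptor by which classical monocytes leave the marrow, had a UMI in 58 of 71 monocyte-like members, 4 of 256 fibroblast-cluster members and 10 of the 47 remaining members, against 4.21% of B cells. Chil3 was found in 48 of the 71 and in 7 of the 256 (2.73%), against 3.67% of B cells. Tyrobp, the signalling adaptor of many myeloid receptors, was found in all 71 and in 73 of the 256 (28.5%), against 44.9% of B cells and 32.5% of the other cells in the same fibroblast-like clusters. At 1000 UMIs per cell the Tyrobp shares were 98.6% in monocyte-like members, 10.2% in fibroblast-cluster members, 20.9% in B cells and 12.3% in the other cells of those clusters. For Ccr2, Chil3 and Tyrobp the share in fibroblast-cluster members lay under that of B cells. The B cells came from any cluster and were not held to the C1q, F10 or S100a8 and S100a9 limits. Their shares therefore do not set a background. Ccr2 was found in 1.56% of fibroblast-cluster members and 2.49% of the other cells of those clusters, and Chil3 in 2.73% and 1.95%. Doublet scoring marked 8.06% of the B cells, against 2.73% of the fibroblast-cluster members. The source of these UMIs was not tested.

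Matrix genes showed the reverse. Col1a2, a chain of type I collagen, had 1262.7 CPM (1192.2 to 1336.2) in the fibroblast-cluster members and 13.1 CPM (2.71 to 38.4) in the monocyte-like members, in which it was found in 3 of 71 cells. Dcn, which encodes the proteoglycan decorin, had 11161.6 and 297.9 CPM in the same order, and Gsn, which encodes the actin-severing protein gelsolin, 22147.3 and 381.2. Pi16, a marker of adventitial fibroblasts, had 2705.6 and 100.8 CPM. The other 1285 cells of the fibroblast-like clusters were close to the members in Col1a2, at 1152.0 CPM, and in Gsn, at 23770.5 CPM.

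**Figure D3:**
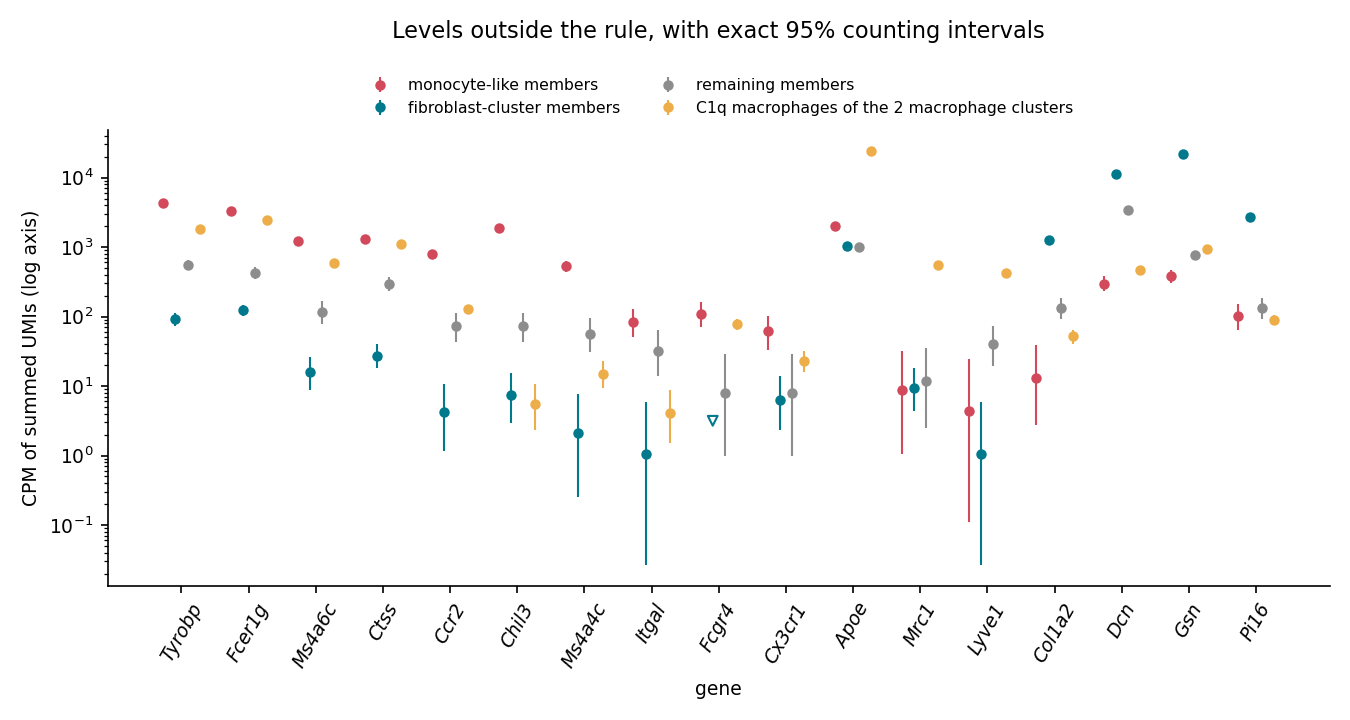
Levels in CPM (log axis, with exact 95% Poisson intervals) of 17 genes outside the rule in the monocyte-like, fibroblast-cluster and remaining members and in 443 C1q macrophages; an open triangle marks a group at 0, drawn at the level of 3 UMIs. The monocyte-like members are high in Tyrobp, Ccr2 and Chil3, the fibroblast-cluster members in Col1a2, Dcn, Gsn and Pi16, and the macrophages in Apoe, Mrc1 and Lyve1.

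Sums of the marker lists in single cells describe the same groups. They are no independent evidence, because the fibroblast-like clusters were named from the fibroblast list and the monocyte-like cluster from the classical list. Adding the UMIs of the classical and nonclassical monocyte lists gave 21 to 84 per cell with a median of 41 in the monocyte-like members, 3 to 55 with a median of 16 in the fibroblast-cluster members and 2 to 85 with a median of 19 in the remaining members. A list of 8 fibroblast genes gave 0 to 16 with a median of 2, 23 to 489 with a median of 131, and 0 to 220 with a median of 4 in the same order. The fibroblast sum exceeded the monocyte sum in 0 of 71, 256 of 256 and 11 of 47 cells, in all 267 of 374 (71.4%).

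**Figure D4:**
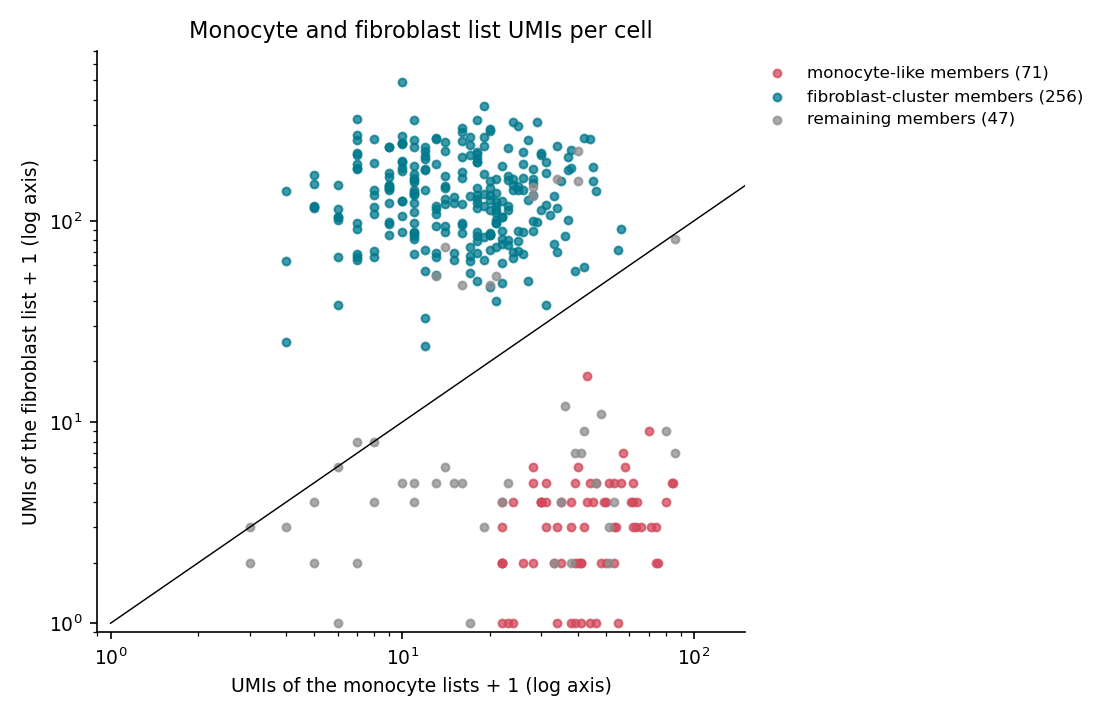
Each rule-selected cell by its UMIs of the monocyte lists and of the fibroblast list (both plus 1, log axes), with the diagonal where the sums are equal. All 71 monocyte-like members lie on the monocyte side, and all 256 fibroblast-cluster members lie on the fibroblast side.

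Many members sat at the lower limits of the rule. Lyz2 and Csf1r summed to exactly 2 in 139 of the 374 cells (37.2%), 123 of them fibroblast-cluster members and 0 monocyte-like. A further 142 cells had a sum of 1 and met every other condition, with 124 in the fibroblast-like clusters and 1 in the monocyte-like cluster. The sum of Plac8, Ly6c2, Ace and Treml4 was exactly 2 in 103 members (27.5%), of which 3 were monocyte-like, and 266 cells missed the rule with a sum of 1. For C1qa, C1qb and C1qc, 116 members were at the limit of 2 and 52 cells just outside at 3. For Alox15, Serpinb2 and F10, 49 members were at the limit of 1 and 27 cells just outside at 2, of which 24 were in the monocyte-like cluster.

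The rule also left out 135 of the 206 cells in the monocyte-like cluster. The condition on Alox15, Serpinb2 and F10 failed 65 of them, and 41 of these failed it alone. Almost all of this came from F10, which encodes coagulation factor X: it had 217 UMIs in 117 of the 206 cells, a level of 284.7 CPM against 32.2 CPM in the rest of the library. C1q genes failed 40 cells, Cd79a or Ms4a1 failed 32, the sum of the 4 required genes 16, and Cd3d or Cd3e and Nkg7 14 each. The 15 classical monocyte genes, which named the cluster, summed to 9135.2 CPM in the 71 members and 9853.0 CPM in the 135 cells left out, and the nonclassical list to 4547.9 and 3821.8 CPM.

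The monocyte-like members were next set beside 443 C1q macrophages, cells of the 2 macrophage-like clusters that met the same exclusions but had over 2 UMIs of C1qa, C1qb and C1qc. A gene was counted as measured with at least 10 UMIs over both groups, and as higher or lower when the ratio of CPM passed 2 times. Of 8372 measured genes, 11.2% were higher and 16.4% lower in the monocyte-like members, with a median log2 ratio of 0.06. Of the 15 classical monocyte genes, 10 were higher and 2 lower, with a median log2 ratio of 2.69. These counts rest on cells whose cluster the same genes named. The genes higher and lower were 938 and 1375 as scaled to total UMIs. They were 723 and 1612 by median of ratios, which moved all log2 ratios by -0.15, and 674 and 1685 by TMM, which moved them by -0.19.

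Chil3 stood apart most, with 435 UMIs in 71 monocyte-like members and 8 in 443 macrophages, a ratio of 349.2 (175.7 to 814.1). Ms4a4c, of the MS4A membrane protein family, had 120 and 22 UMIs, a ratio of 35.0 (22.1 to 58.0). Vcan, which encodes the proteoglycan versican, had 184.0 and 6.14 CPM. These 3 genes were all higher in the monocyte-like members by more than 20 times. Ccr2 had 797.4 and 127.6 CPM, a ratio of 6.25 (5.07 to 7.71), so the macrophages kept a measurable level. F13a1, which encodes the A subunit of coagulation factor XIII and is on the same list, was lower, at 341.7 CPM in the monocyte-like members and 781.1 CPM in the macrophages.

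Of 13 measured nonclassical monocyte genes, 7 were higher in the monocyte-like members and 1 was lower, with a median log2 ratio of 1.40. Gngt2, which encodes a G protein gamma subunit, had 985.8 and 48.4 CPM, and Ear2, an eosinophil-associated ribonuclease gene, 188.4 and 15.7 CPM. Cx3cr1, the fractalkine receptor of nonclassical monocytes and many macrophages, had 61.3 and 23.2 CPM from 14 and 34 UMIs. The lower gene was the lipid scavenger receptor Cd36, at 109.5 and 431.1 CPM.

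Of 15 macrophage markers, none was higher in the monocyte-like members and 13 were lower, with a median log2 ratio of -3.57. The macrophage-like clusters were named from this list, so these counts are a description. The mannose receptor Mrc1 had 2 UMIs in the monocyte-like members and 801 in the macrophages (ratio 0.016, 0.00194 to 0.0581), and the hyaluronan receptor Lyve1 had 1 and 620 (ratio 0.0104, 0.000262 to 0.0579). Timd4 and Mertk, both receptors for dying cells, had 0 UMIs in the monocyte-like members against 112 and 72 in the macrophages. The exceptions among the 15 were Trem2 and Cd68, with log2 ratios of 0.29 and -0.63. Apoe, which encodes apolipoprotein E, had 2033.0 CPM in the monocyte-like members and 24192.0 CPM in the macrophages.

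Among 14 genes of MHC class II presentation, 7 were lower in the monocyte-like members and 1, H2-Ob with 4 and 9 UMIs, was higher. With either other scaling 10 of the 14 were lower. H2-Aa had 1025.2 CPM in the monocyte-like members and 8294.3 CPM in the macrophages, and Cd74, the invariant chain, 4749.4 and 22670.8 CPM. Complement genes went the same way, with 5 of 9 lower and none higher. C4b had 2 and 526 UMIs, the anaphylatoxin receptor C3ar1 17.5 and 225.1 CPM, and C5ar1 157.7 and 682.2 CPM.

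Receptors of pattern recognition were mostly higher in the monocyte-like members, 7 of 12 against 2 lower, with a median log2 ratio of 1.61. Clec4e, which encodes the glycolipid receptor Mincle, had 350.5 CPM in the monocyte-like members and 23.2 CPM in the macrophages (ratio 15.1, 10.0 to 23.3). Trem1, an amplifier of inflammatory signalling, had 78.9 and 4.09 CPM, and the formyl peptide receptor Fpr2 92.0 and 8.19 CPM. The lipopolysaccharide receptor Tlr4 had 2 and 48 UMIs (ratio 0.268, 0.0315 to 1.02), an interval that reaches above 1. Among 6 Fc receptor genes none was higher and 3 were lower: Fcgrt, the neonatal receptor, had 65.7 and 755.1 CPM, Fcgr2b 179.6 and 583.2 CPM, and Fcgr3 337.4 and 1075.1 CPM.

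Of 15 trafficking and adhesion genes, 9 were higher and 1 lower, and 8 stayed past 2 times under the other scalings. The integrin subunit Itgb7 had 184.0 CPM in the monocyte-like members and 11.6 CPM in the macrophages, Itgal, a subunit of the integrin LFA-1, 83.2 and 4.09 CPM, and the hyaluronan receptor Cd44 346.1 and 98.2 CPM. Itgal, Spn, Cx3cr1 and Ccr2 also stand on the monocyte lists.

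Inflammatory cytokines and chemokines were mostly on the macrophage side, with 10 of 18 lower in the monocyte-like members and 1 higher. The higher gene was Il1b, which encodes interleukin-1 beta, at 1051.5 CPM in the monocyte-like members and 150.1 CPM in the macrophages (ratio 7.01, 5.81 to 8.45). Ccl2 and Ccl7, the ligands of CCR2, had 337.4 and 1291.3 CPM, and 100.8 and 1492.6 CPM. Tnf had 70.1 and 150.8 CPM, and the anti-inflammatory cytokine Il10 17.5 and 79.1 CPM. Immediate early and heat shock genes, which cell isolation can induce, also differed: 6 of 15 were lower in the monocyte-like members and none was higher, with Egr1 at 197.2 and 958.4 CPM and Hspa1a at 245.4 and 1275.6 CPM. Their part in the cytokine differences was not tested.

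Coagulation genes were divided, with 3 of 11 higher and 3 lower. Thbs1, which encodes the matrix and platelet protein thrombospondin-1, had 433.8 CPM in the monocyte-like members and 19.1 CPM in the macrophages, and Plaur, the urokinase receptor, 319.8 and 34.8 CPM. Transcription factor and growth factor receptor genes gave 4 of 16 higher and 1 lower. Spi1, which encodes PU.1, had 604.6 and 296.1 CPM, Cebpb 1941.0 and 685.6 CPM, and Csf2rb, the shared beta chain of the GM-CSF receptor family, 118.3 and 25.2 CPM.

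Markers of other cell types moved in places with these groups. Of 7 measured neutrophil markers, 4 were higher in the monocyte-like members and 1 was lower, and the summed list had 687.9 and 317.9 CPM. Mmp8, a collagenase of neutrophils, had 51 and 5 UMIs, and Lcn2, a neutrophil granule protein, 33 and 12. Fibroblast genes summed to 775.5 CPM in the monocyte-like members and 1643.3 CPM in the macrophages, with 4 of 8 lower, and hemoglobin and other erythroid genes to 10112.3 and 12215.4 CPM. The part of these other cell types in the differences was not tested.

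Within the monocyte-like members, the 14 cells with Ace or Treml4 but no Ly6c2 were set beside the 43 with Ly6c2 alone. These groups held 33661 and 147427 UMIs, so 2262 genes were measured, of which 9.81% were higher and 18.0% lower in the Ace/Treml4 cells, with a median log2 ratio of -0.02. Median-of-ratios scaling moved the log2 ratios by -0.49 and TMM scaling by -0.42. The genes higher and lower were 222 and 408 as scaled to total UMIs, 104 and 624 by median of ratios, and 113 and 573 by TMM. Single genes in 14 cells rest on few UMIs, and both counts are given where they decide the value. Some of the 14 cells were placed in that group by 1 UMI of Ace or Treml4. The cell with the most Ace, 3 UMIs, was marked as a doublet and held 16 UMIs of the fibroblast list.

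Of the 15 classical monocyte genes, 12 were lower in the Ace/Treml4 cells and none was higher, with a median log2 ratio of -1.80, and 13 were lower under either other scaling. Ccr2 had a UMI in 4 of 14 Ace/Treml4 cells and in 41 of 43 Ly6c2 cells, at 297.1 and 922.5 CPM (ratio 0.322, 0.151 to 0.611). F13a1 had 0 and 65 UMIs, a ratio of at most 0.202 against a floor of 3 UMIs over the group. Fn1, which encodes fibronectin, had 1 and 55 UMIs (ratio 0.0796, 0.00198 to 0.463), and Vcan 1 and 33 (0.133, 0.00326 to 0.793). Chil3 had 386.2 and 2482.6 CPM, and without the 1 Ace/Treml4 cell that held 9 of the group's 13 UMIs the level was 131.3 CPM. The endotoxin co-receptor Cd14 had 5 and 90 UMIs, at 148.5 and 610.5 CPM. The list genes that did not pass 2 times were Msrb1, Lyz1 and Clec4a1.

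Nonclassical genes ran in the opposite direction: 6 of 9 measured were higher in the Ace/Treml4 cells and none was lower, with a median log2 ratio of 2.01, and the same number was higher under both other scalings. Gngt2 had at least 1 UMI in all 14 Ace/Treml4 cells, with 1 to 18 and a median of 6, and in 33 of 43 Ly6c2 cells, with 0 to 9 and a median of 1. Its levels were 2970.8 and 529.1 CPM (ratio 5.62, 4.13 to 7.65). Ear2 was found in 13 of 14 and 8 of 43 cells, at 920.9 and 61.0 CPM (ratio 15.1, 7.01 to 36.0). The per-cell ranges of both genes overlapped between the groups.

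Fcgr4, the Fc receptor of nonclassical monocytes, had 14 UMIs in 7 of 14 Ace/Treml4 cells and 9 UMIs in 8 of 43 Ly6c2 cells. Nr4a1, the factor nonclassical monocytes need, had 831.8 and 244.2 CPM (ratio 3.41, 2.0 to 5.74). It is also an immediate early gene, and of 15 immediate early and heat shock genes 7 were higher in the Ace/Treml4 cells and none lower, a count of 2 by median of ratios and 3 by TMM. The part of that response in the Nr4a1 difference was not tested. Itgal had 8 and 3 UMIs (ratio 11.7, 2.8 to 68.4), and Pou2f2, an octamer-binding transcription factor, 11 and 12 UMIs (ratio 4.01, 1.61 to 9.94). Cebpb, Klf2 and Cd36 had log2 ratios of 0.22, 0.29 and 0.13. Cx3cr1 did not reach the minimum of 10 UMIs, with 5 UMIs in 5 of 14 cells and 3 in 3 of 43.

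**Figure D5:**
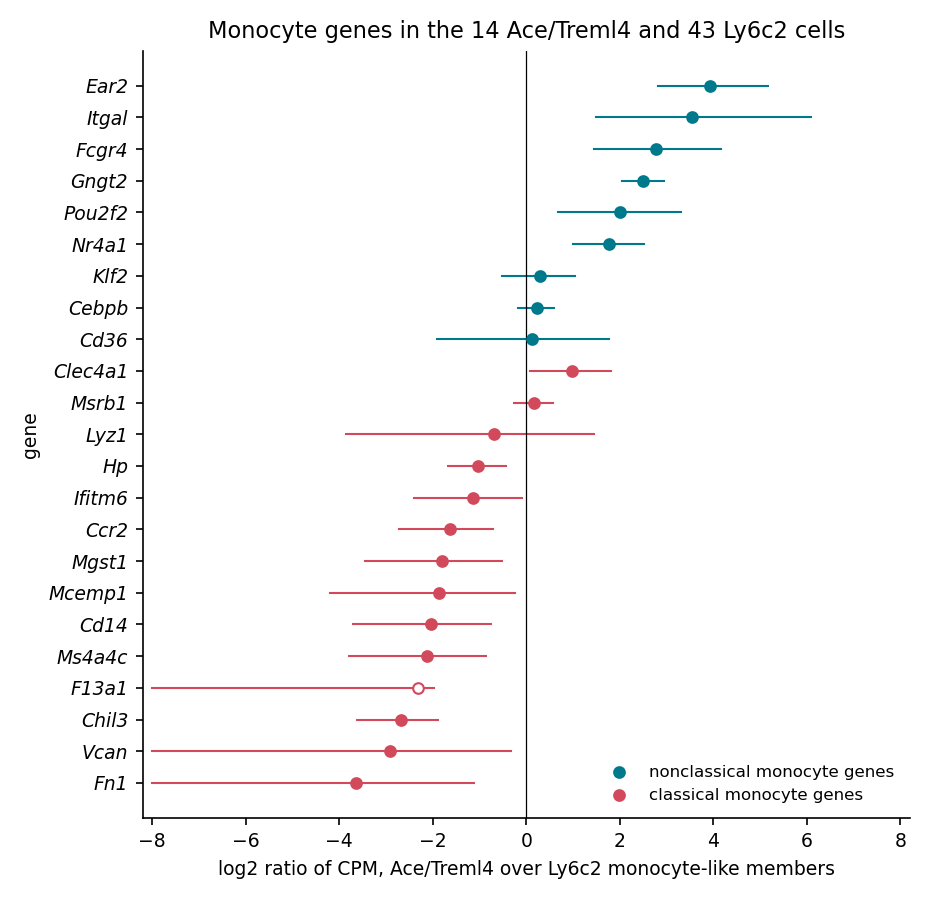
Log2 ratio of CPM, Ace/Treml4 over Ly6c2 monocyte-like members, for the 9 measured nonclassical and 14 of the classical monocyte genes, with exact 95% intervals cut at -8; the open point marks F13a1, at 0 UMIs in the Ace/Treml4 cells and set to 3 UMIs. Nonclassical genes such as Ear2 and Gngt2 lie to the right of 0, and all but 3 of the classical genes shown lie beyond 2 times to the left.

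Genes of the rule differed between these groups too. Lyz2 had 3 to 60 UMIs per cell with a median of 13.5 in the Ace/Treml4 cells and 20 to 136 with a median of 73 in the Ly6c2 cells, and Csf1r had 505.0 and 183.1 CPM. Plac8 was close, at 3446.1 and 3798.5 CPM. The 11 monocyte-like members with Plac8 alone had 18239.8 CPM of Lyz2, 729.6 CPM of Ccr2 and 1134.9 CPM of Chil3. Their Ear2 was 3 UMIs, all in 1 cell.

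MHC class II genes were higher in 4 of 8 in the Ace/Treml4 cells and lower in 1, and 2 of 8 were higher under both other scalings. Cd74 had 1 to 55 UMIs per cell with a median of 11.5 in the Ace/Treml4 cells and 0 to 110 with a median of 3 in the Ly6c2 cells, at 7516.1 and 2597.9 CPM (ratio 2.89, 2.46 to 3.4). H2-Ab1 had 2049.8 and 698.7 CPM, and without the highest cell of each group 1440.6 and 456.3. A few cells in each group therefore carried much of these genes. H2-DMa, a peptide-loading subunit, had 3 and 40 UMIs (ratio 0.328, 0.065 to 1.03).

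Of 5 measured coagulation genes, 4 were lower in the Ace/Treml4 cells and none was higher. Besides F13a1, these were Thbs1, with 2 and 75 UMIs (ratio 0.117, 0.0139 to 0.437), Anxa2, with 386.2 and 956.4 CPM, and its partner S100a10, with 415.9 and 1499.0 CPM. Trafficking genes were divided, 4 of 12 higher and 4 lower. The integrin subunit Itgb2 was higher, at 415.9 and 122.1 CPM, while Itgb1 had 1 and 19 UMIs (ratio 0.231, 0.00555 to 1.45). Beyond the lists, the acute-phase gene Saa3 had 2 and 111 UMIs (ratio 0.0789, 0.00944 to 0.292) and the glucocorticoid-induced Anxa1 1 and 50 (0.0876, 0.00217 to 0.511). Hemoglobin transcripts were also lower in the Ace/Treml4 cells, but 1 of the Ly6c2 cells held 963 of the 1105 Hbb-bs UMIs. Without it the Ly6c2 level of Hbb-bs was 1006.4 CPM, against 1099.2 CPM in the Ace/Treml4 cells.

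The fibroblast-cluster members were compared with the other 1285 cells of the same clusters. Of 11697 measured genes 2.59% were higher and 7.12% lower in the members, with a median log2 ratio of -0.04. None of the 15 classical and none of the 12 measured nonclassical monocyte genes was higher in the members, and 3 of each were lower. Their median log2 ratios were -0.23 and -0.12, while the summed levels were 2329.3 and 2061.3 CPM for the classical and 2226.0 and 2284.9 CPM for the nonclassical list. None of 14 macrophage markers was higher and 1 was lower, and the 8 fibroblast genes all stayed within 2 times, at a summed 38623.1 and 41155.4 CPM.

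Lymphocyte genes were lower in the fibroblast-cluster members, 4 of 5 measured B and plasma cell markers and 2 of 4 T and natural killer cell markers, beside a rule that demands no Cd79a, Ms4a1, Cd3d, Cd3e or Nkg7. The interferon-induced chemokine Cxcl10 had 146.5 and 49.5 CPM (ratio 2.96, 2.38 to 3.67), the receptor gene Mrgprg 92.8 and 27.7 CPM (3.35, 2.52 to 4.43), and Ctla2a, which encodes a cysteine protease inhibitor, 199.2 and 47.1 CPM (4.23, 3.46 to 5.17). The groups were spread differently over the clusters: 136 of the 256 members but 451 of the 1285 other cells lay in the cluster whose first leading gene was Mrgprg. Within that cluster Mrgprg had 165.9 and 70.1 CPM (ratio 2.37, 1.78 to 3.14), Cxcl10 171.7 and 65.0 CPM (2.64, 1.98 to 3.52) and Ctla2a 312.5 and 54.7 CPM (5.71, 4.41 to 7.43). In the second cluster, with 103 members, Cxcl10 had 131.3 and 44.4 CPM (2.96, 2.05 to 4.22) and Ctla2a 61.6 and 42.0 CPM (1.47, 0.885 to 2.34). Platelet genes were higher in 4 of 5 measured, but 1 member held 75 of the 86 Ppbp UMIs. Without the highest cell of each group Ppbp had 11.6 and 5.72 CPM.

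Taken over all 374 members, all 8 fibroblast genes were higher in every comparison with other cells, but they did not always have the highest ratios. Against 814 cells that met the C1q macrophage limits, 10.8% of 11556 genes were higher and 7.74% lower. These 814 were a mixed group. Only 443 of them lay in the macrophage-like clusters, while 62, 58 and 13 lay in the fibroblast-like clusters. The 8 fibroblast genes had a summed 26721.5 and 9097.4 CPM. Among genes with at least 50 UMIs in the higher group, Chil3 led, at 322.4 and 31.7 CPM (ratio 10.2, 8.14 to 12.8). Against 106 neutrophils, cells with at least 20 UMIs of S100a8 and S100a9, 31.8% of 9368 genes were higher and 7.75% lower. The microfibril gene Fbn1 led with 210.3 and 4.41 CPM, from 300 and 1 UMIs (ratio 47.7, 8.49 to 1888.8). Its place therefore rests on 1 UMI in the neutrophils. The neutrophil genes Ly6g and Retnlg were the lowest, Retnlg at 59.6 and 31849.9 CPM. Against all other cells, 16.2% of 14495 genes were higher and 7.9% lower. Mrgprg led there, at 61.7 and 5.45 CPM (ratio 11.3, 8.56 to 14.9). Chil3 had 322.4 and 61.0 CPM, and Pi16 1838.4 and 398.1 CPM.

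Splitting all members by the required genes gave largely the same division of fibroblasts and monocytes. In the 180 Ace/Treml4 members against the 56 Ly6c2 members, 24.0% of 7375 genes were higher and 12.7% lower. All 8 fibroblast genes were higher, at a summed 33058.3 and 5861.6 CPM, and the scavenger receptor gene Scara5 had 203 and 1 UMIs. Chil3 had 22.7 and 1774.9 CPM, and Ccr2 24.2 and 667.4 CPM. When only monocyte-like members were kept, the 8 fibroblast genes had too few UMIs for more than 2 to be measured, and none of these was past 2 times.

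The same rule was applied to the intimal libraries. It took 108 of 2030 cells (5.32%, 4.38 to 6.39) and 117 of 2132 (5.49%, 4.56 to 6.54) in the descending libraries and 147 of 2172 (6.77%, 5.75 to 7.91) in the arch, shares above the 4.4% of the adventitia. All but 1, 6 and 6 of these cells carried Ace or Treml4, with Ace levels of 582.0, 654.7 and 702.1 CPM, beside 554.4, 517.5 and 599.4 CPM in the other cells of the same libraries. At least 2 UMIs of the endothelial genes Pecam1 and Cdh5 were found in 93.5%, 86.3% and 88.4% of them, against 5.08% of the adventitial members. The endothelial list was nearly as high in the other intimal cells. It summed to 6954.1, 6703.9 and 4256.6 CPM in the intimal members, beside 6157.3, 5654.6 and 3736.9 CPM in the other cells. Ly6c2 without Ace or Treml4 was found in 0, 3 and 1 cells. Ccr2 had 143.0 CPM in the adventitial members and 3.86 to 15.4 CPM in the intimal cells. The intimal members were deeper, with medians of 9314 to 10561 UMIs against 3533.5.

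When every cell was first thinned to 1000 UMIs, the order turned round. The rule then took 180 adventitial cells (2.12%), of which 133 lay in the monocyte-like cluster, and 8, 7 and 4 intimal cells (0.394%, 0.328% and 0.184%). The adventitia and the descending intima are both labelled aged, and between them tissue and library cannot be told apart. Between the adventitia and the young arch, age cannot be told apart from these either.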

How the data were processed

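Single-cell RNA sequencing of 4 libraries of mouse aorta was used. Deposited values are raw UMI counts by gene and barcode, which the authors made with Cell Ranger 2.1.2 on mm10 per the submitters' processing notes; the annotation release is not given in the sources used here. Mice were pooled within the intimal libraries, per the labels' protocols, so each library is 1 sample. Of 27998 gene IDs, 27645 were given symbols from the supplied gene name table. Cells under 200 genes or over 10% mitochondrial UMIs were removed.

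UMIs were summed per group and scaled to 1000000 UMIs per group (CPM). Ratios of CPM carry exact conditional binomial 95% intervals, levels exact Poisson and shares Clopper-Pearson intervals. A gene with at least 10 UMIs over both groups was measured, a ratio of 2 either way was called higher or lower, and a group at 0 was set to 3 UMIs. All genes of 27 lists could be named. Beyond them, the naming rule took the 10 highest and 10 lowest ratios among genes with at least 50 UMIs in the higher group, leaving out rule, mitochondrial and ribosomal protein genes.

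The adventitial cells were clustered (scanpy 1.11.5, 2000 variable genes, 30 components, 15 neighbours, Leiden resolution 1.0) into 28 clusters. A cluster was named when it expressed at least 3 and at least 50% of a list's measured markers, a larger share than of any other list. No other list could have more markers among the cluster's leading genes. Expressed meant a UMI in at least 20% of cells, a level at least 2 times the median over clusters, and at least 25% of the highest cluster. Scrublet's automatic threshold marked 2 adventitial cells (0.0235%) and was taken not to have worked; 0.8% per 1000 cells was used instead, and no cell was removed. Shares were also taken after thinning cells to 1000 UMIs. The calculation of ratios was tested on simulated data. Python 3.11.15, numpy 2.4.6, scipy 1.17.1 and pandas 2.3.3 were used. The members and lists were chosen with earlier results of these data known. A few single-gene results are not reported here.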

Additional observations from a re-analysis of the deposited data

How the results depend on the processing

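Counts here are genes past 2 times in the rule-selected cells or the first-named group. In this section C1q macrophages are the mixed group of any cluster that met those limits. Macrophages alone are those of the 2 macrophage-like clusters. Without the minimum of 10 UMIs, 2157 were higher against C1q macrophages, 2669 lower against neutrophils, 3965 higher against all other cells and 2183 lower in Ace/Treml4 over Ly6c2 members. Likewise 2873 were higher in monocyte-like members over macrophages, 2036 in the Ace/Treml4 over Ly6c2 monocyte-like members and 1435 in fibroblast-cluster members. With at least 30 UMIs, higher and lower were 730 and 535 against C1q macrophages, 877 and 387 between Ace/Treml4 and Ly6c2 members, 467 and 849 over macrophages, 46 and 123 within the monocyte-like members, and 85 and 417 in fibroblast-cluster members, with 404 lower against neutrophils and 1321 higher against all other cells. These follow from the number of genes tested. Median-of-ratios scaling gave 1904 higher and 1533 lower against neutrophils, and 104 and 624 within the monocyte-like members. TMM gave 1944 and 1486 against neutrophils and 113 higher within the monocyte-like members. Demanding no C1q UMI took 1.37% of adventitial, 2.46% and 2.95% of descending and 1.52% of arch cells, with 4363 genes higher against all other cells, 861 and 587 between Ace/Treml4 and Ly6c2 members, 3434 and 587 over macrophages, 106 and 140 within the monocyte-like members, and 1487 higher in fibroblast-cluster members. Demanding 2 UMIs for the split gave 265 lower within the monocyte-like members, and taking all cells of their cluster gave 819 higher. With at most 2 UMIs of other lineages no adventitial member was left (0%, and 0.0493%, 0% and 0% of intimal cells), so no comparison could be had: the lowest member held 5, and free RNA was not removed. A limit of 5% mitochondrial UMIs gave 5.56% of adventitial cells, and thinning to 1000 UMIs gave 2.12%, against 0.394%, 0.328% and 0.184% of intimal cells. The cause of these shifts was not tested.

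Keeping only members of the monocyte-like cluster, an alternative chosen after the data were seen like the 3 comparisons within clusters, left 0.836% of adventitial cells. Higher and lower genes were then 1893 and 1828 against C1q macrophages, 5480 and 1883 against all other cells and 222 and 408 between Ace/Treml4 and Ly6c2 members, with 1090 higher against neutrophils. The log2 ratios of matrix genes changed sign: Col1a2 was -4.19 against C1q macrophages, -3.23 against neutrophils and -4.47 against all other cells, Gsn -3.6 and -2.55 against the first 2, and Pi16 -2.25 against all other cells. Over all alternatives 99 counts stayed within 1.5 times and 43 did not, and of the values of single genes 336 stayed, 75 moved and 6 changed sign. Values within single fibroblast-like clusters were also chosen after the data were seen. No paired analysis was possible because there is 1 adventitial library and no test.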

Other observations

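Ly6c2 was not particular to the monocyte-like cluster. That cluster had 1335.46 CPM, a cluster of T or natural killer-like cells 1233.64 CPM, a cluster of B or plasma cell-like cells 910.96 CPM and an unnamed cluster led by lymphocyte genes 624.83 CPM. Treml4 was found at 32.80 CPM in the monocyte-like cluster and at 19.02 CPM in the neutrophil-like cluster, and at under 4 CPM in the other clusters. Among unnamed clusters, 1 with 33613.57 CPM of Lyz2 and 275.69 CPM of Csf1r exceeded the monocyte-like cluster in both. It had 130.71 CPM of Plac8 and 41.74 CPM of Ly6c2. Its leading genes included Cd5l, and also Serpinb2 and Alox15, which the rule limits.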
